A study of Caenorhabditis elegans with 2 samples.

Results

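The mir-51 family of the nematode Caenorhabditis elegans comprises 6 microRNA genes, cel-mir-51, cel-mir-52, cel-mir-53, cel-mir-54, cel-mir-55 and cel-mir-56. They are described here by the regions recovered around them with the protein C08G9.2. They were found by name among the 261 genes that Ensembl annotates as microRNA genes on the WBcel235 assembly, the same assembly as ce11, and all 6 were found. The family was chosen by the peaks seen at these genes in the same data. The presence, signal, rank and distance of those peaks are therefore a description and were not tested.

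C08G9.2, which RefSeq annotates as an uncharacterized protein, was mapped by ChIP-seq, in which DNA crosslinked to a protein is precipitated with an antibody and sequenced. The only group was strain OP513, genotype unc-119(tm4063) III; wgIs513, hermaphrodite late embryos taken whole, 5 hours after bleaching had synchronized them. All carried C08G9.2 with a GFP-FLAG tag at its C terminus from a transgene, and an antibody against GFP was used. There were 2 biological replicates and no untagged, untreated or other comparison group in the files used, and whole embryos mix all cell types, so in which cells the protein lay near these genes cannot be told.

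A microRNA is transcribed within a longer RNA, from which a hairpin is cut by Drosha in the nucleus and then by Dicer in the cytoplasm. One strand of the duplex is loaded into an Argonaute protein, and its seed, the bases next to the 5′ end, pairs with target messenger RNAs and represses them. The mir-51 family is the C. elegans branch of an ancient family that includes the vertebrate miR-100 microRNAs. Worms that lack the whole family die as embryos, with defects that include failure of the pharynx to stay attached to the mouth, and the cadherin gene cdh-3 has been reported as a target in that process.

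The mature sequences are shown because the seed is what unites members that lie at separate places in the genome. They were read from RefSeq annotation of the WBcel235 assembly, and the capitals mark the seed, bases 2 to 8.
cel-mir-51: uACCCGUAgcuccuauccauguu
cel-mir-52: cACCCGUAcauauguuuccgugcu
cel-mir-53: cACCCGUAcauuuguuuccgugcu
cel-mir-54: uACCCGUAaucuucauaauccgag
cel-mir-55: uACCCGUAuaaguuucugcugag
cel-mir-56: uACCCGUAauguuuccgcugag
All 6 share the seed ACCCGUA, and none of the other mature microRNAs among the 458 in the RefSeq annotation has it. cel-mir-52 and cel-mir-53 have the same length, 24 bases, and differ by 1 substitution, A12U, with positions counted from 1 at the 5′ end and the base of cel-mir-52 first. Their hairpins share a run of 17 identical bases, the longest of any pair of members. cel-mir-54 and cel-mir-56 come next with a run of 11 bases, and the other 13 pairs share 7 to 9.

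The members lie at 3 loci. cel-mir-51 (WBGene00003279, chromosome IV, 11026013 to 11026112) and cel-mir-53 (WBGene00003281, chromosome IV, 11027593 to 11027691) are both on the minus strand, 1480 bp apart, with cel-mir-53 upstream. Both are intergenic, between alh-3, annotated as a 10-formyltetrahydrofolate dehydrogenase, and hrg-5, annotated as a heme transporter. The end of alh-3 lies 142 bp from cel-mir-51, and hrg-5 lies 597 bp from cel-mir-53.

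cel-mir-52 (WBGene00003280, chromosome IV, 14034008 to 14034107, plus strand) is isolated. The nearest coding genes, irld-55 and Y37A1B.7, are 9379 and 8487 bp away, and the surrounding stretch holds genes for non-coding RNAs and piRNAs, the small RNAs that silence transposons in the germ line. cel-mir-54 (WBGene00003282, chromosome X, 13144996 to 13145094), cel-mir-55 (WBGene00003283, 13144827 to 13144924) and cel-mir-56 (WBGene00003284, 13144691 to 13144787) form a cluster on the minus strand in that order of transcription, with 71 bp and 39 bp between neighbours. The cluster lies inside intron 1 of F09A5.3, an uncharacterized coding gene on the plus strand. That intron is 9158 bp long. The microRNAs are on the opposite strand and so run against their host gene. The nearest other coding genes are ttr-34, which ends 3804 bp from cel-mir-56, and mob-2, 7725 bp from cel-mir-54.

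The hairpins of the X cluster are printed to show on which side of the hairpin the family's arm sits, with the mature arm that carries the family seed in capitals.
cel-mir-54, chrX:13144996-13145094, minus strand: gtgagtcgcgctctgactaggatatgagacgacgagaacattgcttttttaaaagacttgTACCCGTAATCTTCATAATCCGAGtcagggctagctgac
cel-mir-55, chrX:13144827-13144924, minus strand: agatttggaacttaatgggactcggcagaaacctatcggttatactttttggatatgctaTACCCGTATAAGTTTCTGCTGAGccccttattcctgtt
cel-mir-56, chrX:13144691-13144787, minus strand: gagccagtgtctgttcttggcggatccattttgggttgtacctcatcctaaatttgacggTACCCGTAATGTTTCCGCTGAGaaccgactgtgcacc
In these 3 genes the family's seed is on the 3′ arm of the hairpin, with the mature sequence beginning at base 61 of each. In cel-mir-51, cel-mir-52 and cel-mir-53 it is on the 5′ arm, beginning at base 17, 17 and 16. The chromosome IV and X members therefore place the family's arm on opposite sides of the hairpin.

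All 6 members had a thresholded summit, the position of highest signal of a peak on the final list of 1416, within 2000 bp of the annotated start. The same held for 56 of all 261 microRNA genes (21.5%), and for 1572 of 19973 protein-coding genes (7.87%). Within 500 bp the count was again 6 of 6, against 31 of 261 microRNA genes (11.9%). Because the family was chosen by these peaks, nothing is read from the contrast. The annotated start of a microRNA gene is the start of its hairpin record, not of the longer transcript it is cut from, so these distances do not place the peaks relative to a promoter.

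The 6 members shared 5 distinct peaks, which are named here by the nearest member. Each had a counterpart region in both replicate lists that overlapped it over at least 50% of the longer region. The thresholded list was itself made from the replicate and pooled lists, and 1415 of its 1416 peaks had an overlapping region in both replicates. These counterparts are therefore not independent support for the family peaks. The lists rank regions by a signal value on a scale that is not stated, so ranks are compared and signals are given within their own list only.

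**Figure D1:**
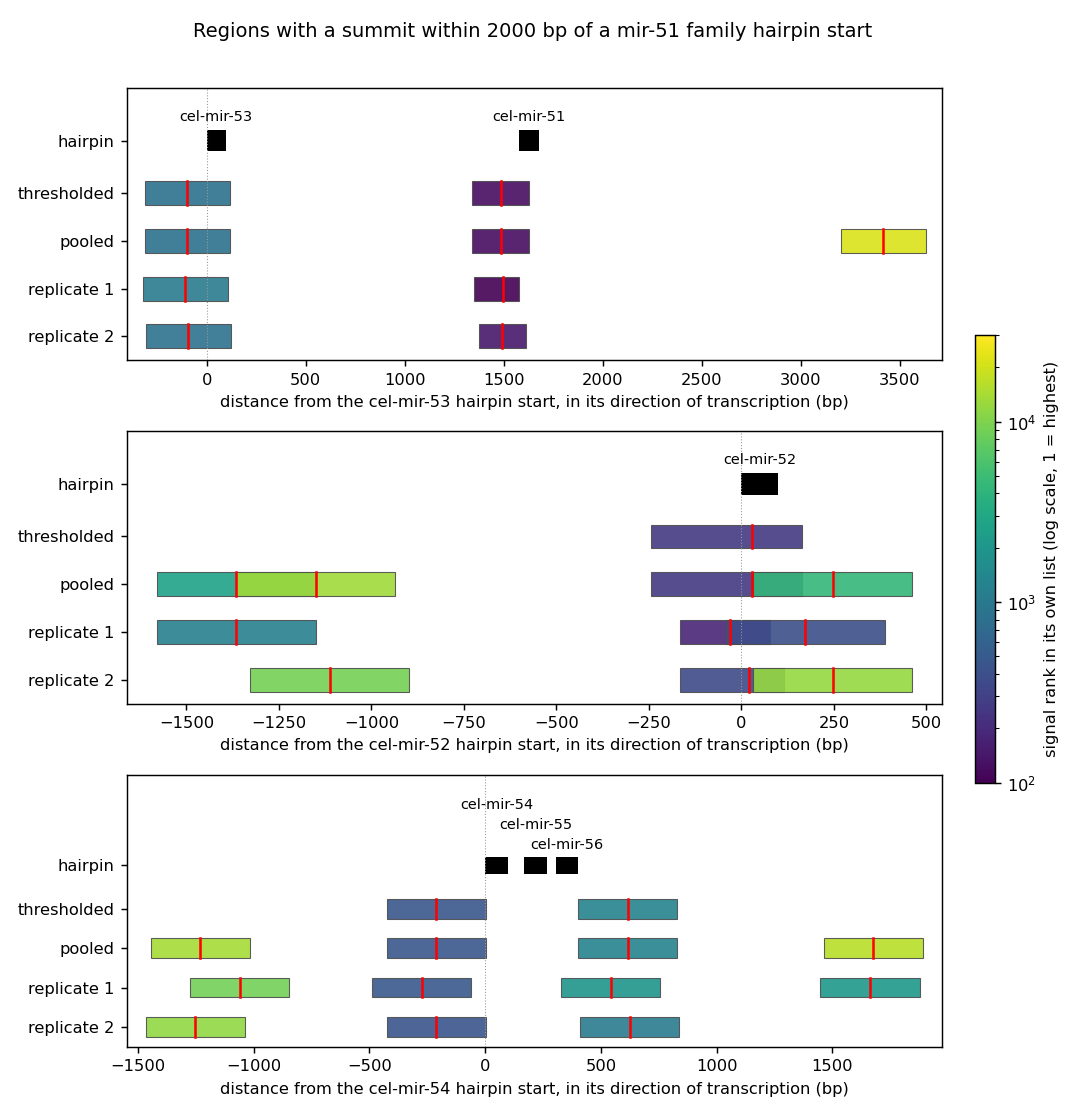
Regions with a summit within 2000 bp of a member's start at the 3 loci, in each of the 4 deposited lists, against distance from the hairpin start of cel-mir-53, cel-mir-52 or cel-mir-54 in base pairs. Black bars are hairpins, red lines are summits, and fill colour is the signal rank in the region's own list on a log scale; the darkest regions are those at cel-mir-51, ranked 99 to 145.

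The sequence at the summits is shown for the 4 peaks of higher signal, as 300 bases of ce11 on the strand of the microRNA with the summit at base 150, or at base 151 for cel-mir-52. In the first 3 the capitals mark the mature arm that carries the family seed, and in the last they mark CACGTG, the E box.
Peak at cel-mir-51, chrIV:11026053-11026352, minus strand: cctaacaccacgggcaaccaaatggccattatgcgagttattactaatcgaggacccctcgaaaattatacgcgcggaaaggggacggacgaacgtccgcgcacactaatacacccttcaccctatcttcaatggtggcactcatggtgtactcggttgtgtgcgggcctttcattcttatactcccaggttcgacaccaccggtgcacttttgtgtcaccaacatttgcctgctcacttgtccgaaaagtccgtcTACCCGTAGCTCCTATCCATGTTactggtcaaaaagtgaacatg
Peak at cel-mir-52, chrIV:14033886-14034185, plus strand: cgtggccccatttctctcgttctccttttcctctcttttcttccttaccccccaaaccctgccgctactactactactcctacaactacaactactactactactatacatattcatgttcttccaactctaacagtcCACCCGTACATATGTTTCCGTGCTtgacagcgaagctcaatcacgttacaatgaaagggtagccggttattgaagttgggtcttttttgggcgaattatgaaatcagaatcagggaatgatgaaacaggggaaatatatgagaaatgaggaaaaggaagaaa
Peak at cel-mir-53, chrIV:11027639-11027938, minus strand: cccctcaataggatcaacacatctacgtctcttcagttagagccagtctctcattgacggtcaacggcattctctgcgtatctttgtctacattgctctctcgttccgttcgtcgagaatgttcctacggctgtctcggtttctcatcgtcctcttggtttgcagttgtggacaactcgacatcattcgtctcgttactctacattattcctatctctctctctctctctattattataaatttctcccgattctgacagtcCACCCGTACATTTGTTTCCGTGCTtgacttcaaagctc
Peak before cel-mir-54, chrX:13145156-13145455, minus strand: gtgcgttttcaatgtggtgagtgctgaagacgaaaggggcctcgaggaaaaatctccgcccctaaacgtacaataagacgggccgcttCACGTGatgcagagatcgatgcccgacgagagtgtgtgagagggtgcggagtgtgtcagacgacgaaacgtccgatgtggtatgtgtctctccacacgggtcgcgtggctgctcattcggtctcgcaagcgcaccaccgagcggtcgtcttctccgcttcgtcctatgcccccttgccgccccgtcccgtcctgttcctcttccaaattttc
The windows of the chromosome IV peaks each contain the whole family arm of their microRNA. The summit of cel-mir-52 falls on it, at base 151 with the arm at 139 to 162, whereas the arms of cel-mir-51 (257 to 279) and cel-mir-53 (263 to 286) lie downstream of the summit. None of the 265 words of 36 bases in any of the 5 windows, that of cel-mir-56 included, occurs a second time in the nuclear genome, so reads of that length from these windows would have 1 exact placement. The read length is not given in the sources used here.

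The peak at cel-mir-51 had the highest signal of any thresholded peak near a microRNA gene. It spans chromosome IV, 11026065 to 11026353, with its summit 91 bp upstream of the hairpin. Its signal was 375 in the pooled list, 198 in replicate 1 and 177 in replicate 2. It ranked 122 of 30000 pooled regions, 99 of 27783 in replicate 1 and 145 of 29382 in replicate 2. It was near the top of both replicate lists, and the replicate summits lay 10 and 1 bp from the thresholded one. The peak covers 48 of the 100 bp of the hairpin. The nearest gene start was not that of the microRNA but of F36H1.17, a non-coding RNA gene of 89 bp on the same strand, whose start is 16 bp from the summit and which contains it. Which of these genes the peak belongs to cannot be told apart from these lists.

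The peak at cel-mir-53 was weaker. It spans chromosome IV, 11027574 to 11028003, and its summit lay 98 bp upstream of the hairpin, nearly the same position as at cel-mir-51. The signal was 123 in the pooled list, 53.9 in replicate 1 and 71.6 in replicate 2. Its ranks were 848, 1042 and 820 in the same order. The peak covers the whole hairpin of 99 bp, and no other gene start lay within 500 bp. The next were those of F36H1.17 at 1570 bp and hrg-5 at 1639 bp. Because the pair of genes is close together, the cel-mir-51 peak also falls within 2000 bp of cel-mir-53, 1488 bp downstream of its start, and the cel-mir-53 peak lies 1677 bp upstream of cel-mir-51. Either gene's best rank within 2000 bp is therefore 122, whereas within 500 bp the best rank of cel-mir-53 was 848.

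At cel-mir-52 the summit lay inside the hairpin, 28 bp after its start. The peak spans chromosome IV, 14033764 to 14034171, and covers all 100 bp of the hairpin. Its signal was 255 pooled, 142 in replicate 1 and 114.7 in replicate 2, with ranks of 264, 183 and 363. The replicate summits differed: replicate 1 had it 31 bp upstream of the hairpin start and replicate 2 had it 20 bp downstream. Within 500 bp of the summit 3 non-coding RNA genes of the Y37A1B series started as well, at 54, 170 and 479 bp, but the start of cel-mir-52 was the nearest. The one at 54 bp is on the minus strand and overlaps the hairpin, and a ChIP-seq peak does not tell the strands apart. The first piRNA gene start was 1165 bp away.

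This locus also held a second region beside the peak, on which the replicates did not match. In replicate 1 a region with its summit 173 bp downstream of the hairpin start ranked 394, with a signal of 92.7. In replicate 2 the region there, at 247 bp, ranked 12060 with a signal of 25.02, and in the pooled list it ranked 4372. A further region 1365 bp upstream ranked 1163 in replicate 1 and 2693 in the pooled list, while the closest in replicate 2, at 1112 bp, ranked 9184. Neither region is on the thresholded list.

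At the X cluster a peak lay on either side of the 3 hairpins. The one before cel-mir-54 spans chromosome X, 13145091 to 13145520, and its summit was 212 bp upstream of cel-mir-54, 382 bp upstream of cel-mir-55 and 519 bp upstream of cel-mir-56. The signal was 179 pooled, 82.0 in replicate 1 and 100.3 in replicate 2, and the ranks were 460, 482 and 450, the closest of the 5 peaks between replicates. The summit of replicate 1 was 63 bp further upstream and that of replicate 2 was at the same base. The nearest gene start was that of F09A5.11, a non-coding RNA gene on the same strand, at 35 bp.

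The peak after cel-mir-56 had the lowest signal of the 5. It spans chromosome X, 13144263 to 13144692, with its summit 309 bp downstream of the start of cel-mir-56, 446 bp downstream of that of cel-mir-55 and 616 bp downstream of that of cel-mir-54. Its signal of 101 was close to the lowest on the thresholded list, 97.0. It ranked 1273 in the pooled list, 1942 in replicate 1 and 1050 in replicate 2, with signals of 42.5 and 63.1 in the replicates. Rank 1942 is beyond the 1416 regions of highest signal in replicate 1, and this was the only one of the 5 peaks outside that number in either replicate. cel-mir-55b, a microRNA gene on the plus strand that overlaps cel-mir-55 and is not a family member, starts 352 bp from this summit and 476 bp from the other. The start of the host gene F09A5.3 lies 2877 and 3705 bp from these summits, so it is not within 2000 bp of either.

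**Figure D2:**
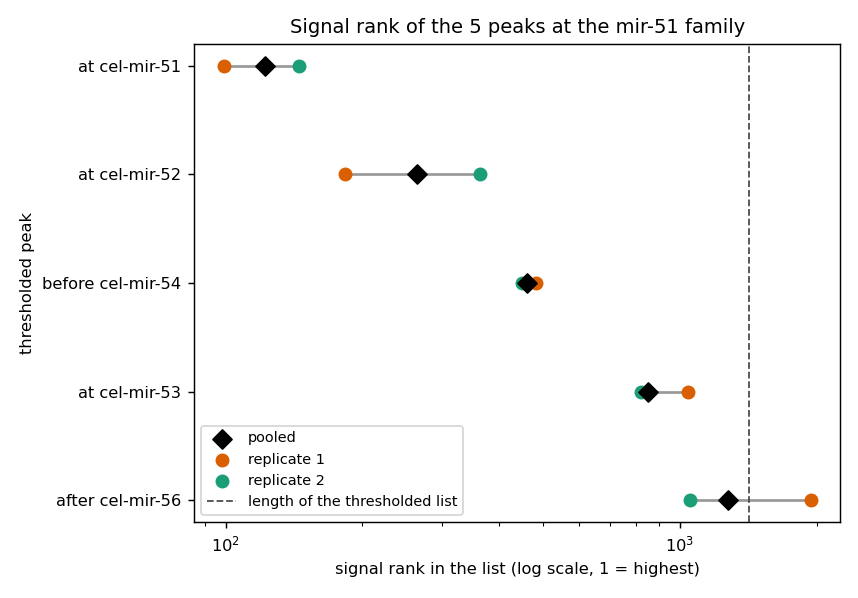
Signal rank of the 5 thresholded peaks at the family (log axis, 1 is the highest signal) in the pooled list (diamonds) and in each replicate (circles); the dashed line is the length of the thresholded list. The ranges between replicates do not overlap from one peak to the next, and only the peak after cel-mir-56 crosses the dashed line, in replicate 1.

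In order of signal the peaks were those at cel-mir-51, at cel-mir-52, before cel-mir-54, at cel-mir-53 and after cel-mir-56. Both replicates gave the same order. The replicate ranks of each peak also stayed apart from those of the next, since 820 to 1042 at cel-mir-53 ended below the 1050 to 1942 of the peak after cel-mir-56, with a gap of 8 ranks there between lists that differ in length.

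Replicate ranks of a family peak differed by 1.07 to 1.98 times, with a median of 1.46. For all 1416 thresholded peaks the median was also 1.46, with quartiles of 1.17 and 2.03, over the 1415 that had a counterpart in both replicates. Of the family peaks 4 of 5 were within the highest 1416 of both replicate lists, and of all thresholded peaks 948 were (66.9%). Summits in replicate 1 lay 9 to 74 bp from the thresholded summit, with a median of 59 bp, and for all thresholded peaks the median was 7 bp with quartiles of 1 and 26 bp. In replicate 2 they lay within 0 to 8 bp. The 3 family peaks that moved most in replicate 1, by 59, 63 and 74 bp, all moved upstream relative to their microRNA.

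**Figure D3:**
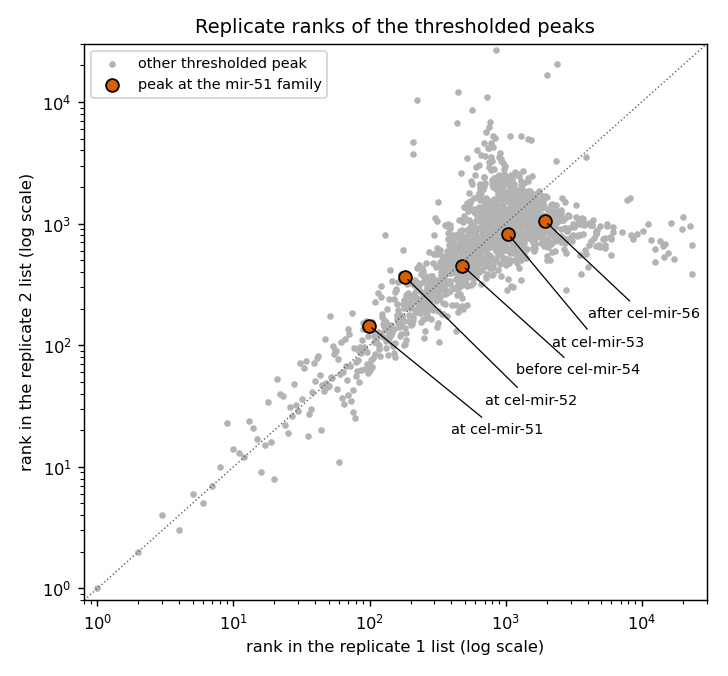
Rank in the replicate 1 list against rank in the replicate 2 list for the thresholded peaks with a counterpart in both, on log axes, with the 5 family peaks in orange and the dotted line marking equal ranks. The family peaks lie within the cloud of the others, with the peak after cel-mir-56 furthest to the right at rank 1942 in replicate 1.

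Beyond the 5 peaks, the pooled list held 6 other regions within 2000 bp of a member, 11 in all. The weakest was 1837 bp downstream of the cel-mir-51 start and ranked 21850. Another, 1678 bp downstream of the cel-mir-54 start, ranked 16434 in the pooled list and 2074 in replicate 1, and replicate 2 had no region there. A region 1232 bp upstream of cel-mir-54 ranked 13880. Just outside the window, regions 2107 bp from cel-mir-56 and 2317 bp from cel-mir-54 ranked 21949 and 19771. The pooled list is described by its depositors as holding background as well as peaks.

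Base composition at the summits set the X peaks apart from those on chromosome IV. GC content of the 300 base window was 58.0% before cel-mir-54 and 59.3% after cel-mir-56. These values were above those of 95.5% and 97.0% of all thresholded peaks, whose median was 45% with quartiles of 38.0% and 50.3%. The windows at cel-mir-51, cel-mir-53 and cel-mir-52 had 50.3%, 45.3% and 42.3%. In 100 base windows the X peaks had 60.0% and 58.0%, above 88.9% and 83.5% of all thresholded peaks, so they stood out less there. In windows of that size cel-mir-52 had 42%, and the median of all peaks was 51%.

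Both strands of the 300 base windows were searched for 6 motifs, the GA repeat GAGAGAG, the T run TTTTTTT, the B box core GGTTCGA, the E box CACGTG, the cyclic AMP response element TGACGTCA and the repeat GCGCGC. Of these, 3 were found at family peaks, each at 1 peak. GGTTCGA, known from the internal promoter of tRNA genes and other RNA polymerase III genes, occurred at cel-mir-51, at bases 189 to 195 of the printed window, and in 10.5% of the windows of all thresholded peaks. That match lies at bases 56 to 62 of the 89 base gene F36H1.17. GAGAGAG occurred at cel-mir-53 as overlapping copies on the opposite strand within a run of alternating C and T at bases 215 to 229, with another copy at 96 to 102, and in 22.0% of all windows. CACGTG occurred before cel-mir-54, at bases 89 to 94, and in 5.51% of all windows. The T run (35.1% of all windows), the cyclic AMP response element (0.565%) and GCGCGC (16.3%) were in none of the 5. GCGCGC, the E box and the cyclic AMP response element read the same on both strands, and copies may overlap each other. With 100 base windows only the GGTTCGA match at cel-mir-51 remained, and 4.80% of the 100 base windows of all thresholded peaks held that motif. No tRNA gene start lay near any of the 5 summits, the closest being 20160 bp from that of cel-mir-52.

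Among microRNA genes as a whole, 40 distinct thresholded peaks had a summit within 2000 bp of a start, and 15 of these were among the 708 thresholded peaks of highest signal. The family's peaks took places 1, 4, 8, 22 and 38 of the 40. The median signal of the 40 was 125, against 135 for all thresholded peaks. Other microRNA genes with a peak numbered 50 of 255, at 37 peaks, of which 2 were the X peaks counted through cel-mir-55b. The nearest thresholded summit lay upstream of 4 of the 6 members and of 38 of the 50 others. It lay at a median of 155 bp from the members' starts, with quartiles of 92.8 and 285 and a range of 28 to 382. For the others the median was 474 bp, with quartiles of 297 and 1154 and a range of 1 to 1924. Members share peaks and the family was chosen by these peaks, so nothing is read from this contrast.

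**Figure D4:**
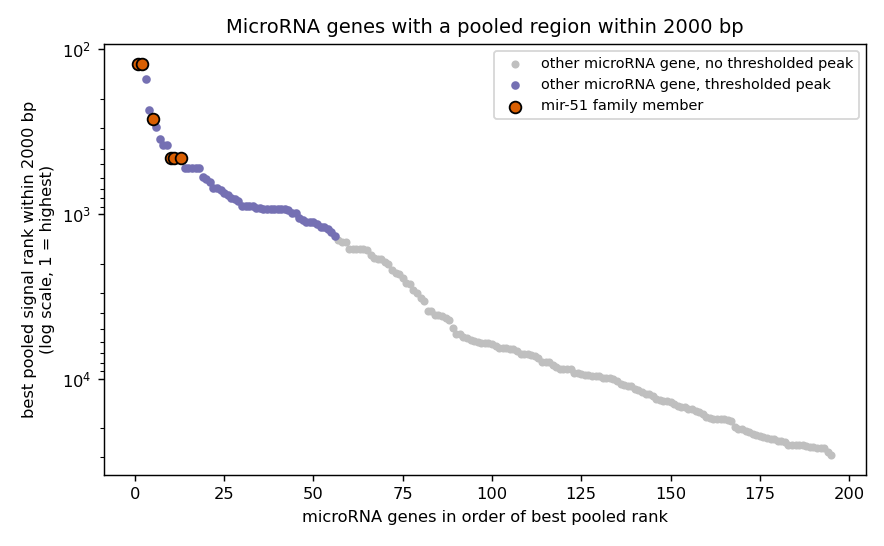
Best pooled signal rank within 2000 bp (log axis, 1 is the highest) for the 195 of 261 microRNA genes with a pooled region there, in order, with family members in orange, other genes with a thresholded peak in purple and the rest in grey. Members sit at 3 levels, rank 122 for cel-mir-51 and cel-mir-53, 264 for cel-mir-52 and 460 for the X cluster, because members at 1 locus share peaks.

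The microRNA genes outside the family with the most similar ranks were those with the smallest mean absolute difference in log10 best rank. The mean was taken over the pooled and both replicate lists, for genes with a region in all 3. Of the 261 microRNA genes, members included, 162 had a region in all 3. The genes most similar to cel-mir-51 were cel-mir-5550, cel-mir-1819, cel-mir-72, cel-mir-90 and cel-mir-356a, with cel-mir-356b tied with the last. The closest, cel-mir-5550, had best ranks of 152, 130 and 183 and differed by 0.10, and its summit was 876 bp downstream of its start. The summit lay 1922 bp downstream for cel-mir-1819, 1646 and 1435 bp upstream for cel-mir-72 and cel-mir-356a, and 324 bp upstream for cel-mir-90. The same genes were nearest to cel-mir-53, which shares the cel-mir-51 peak. For cel-mir-52 they were cel-mir-72, cel-mir-90, cel-mir-1819, cel-mir-356a and cel-mir-356b. There cel-mir-72 had ranks of 295, 254 and 372 and differed by 0.07. For the members of the X cluster, cel-mir-55b had the same ranks because it lies at the same peaks, followed by cel-mir-356a and cel-mir-356b (381, 386 and 391) and by cel-mir-1018 and cel-mir-4921 (529, 664 and 501). cel-mir-4923a, cel-mir-4923b and cel-mir-4925 lie at the same peak and tie with these last genes.

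Other microRNA families are given for comparison of peak positions, without a test. The mir-35 family, also required in the embryo, had a peak within 2000 bp of 8 of its 8 genes. Those were only 2 distinct peaks, at ranks 932 and 1124, and 3 of the 8 genes had one within 500 bp. cel-mir-35, the first gene of that cluster, had it 340 bp upstream, with replicate ranks of 962 and 913. In the let-7 family 3 of 7 genes had a peak, with cel-mir-241 at rank 812, let-7 at 950 and cel-mir-84 at 1288. In the mir-58 family they were 2 of 5, cel-mir-58a at rank 718 and cel-mir-80 at 893. The lin-4 family had 1 of 2, lin-4 itself at rank 1207. The mir-44 family had 2 of 4, cel-mir-61 at rank 982 and cel-mir-44 at 1124, and the mir-2 family 3 of 4, cel-mir-2 at rank 836, cel-mir-250 at 982 and cel-mir-43 at 1124. Several of these share a peak, since cel-mir-61 lies beside cel-mir-250, and cel-mir-43 and cel-mir-44 beside cel-mir-42. The mir-64 family had 0 of 5. Within 500 bp the let-7 family had 1 of 7 genes with a peak and the mir-2 family 2 of 4. The summits of let-7, cel-mir-241 and cel-mir-2 lay 1858, 503 and 1924 bp upstream. In the mir-58, lin-4 and mir-44 families the counts were the same within 500 bp.

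Of 27 genes of the microRNA pathway, 6 (22.2%) had a thresholded summit within 2000 bp and 1 within 500 bp, beside 7.87% of all protein-coding genes within 2000 bp and 4.13% within 500 bp. xrn-2, the exonuclease that degrades released microRNAs, had the highest signal, 429 at rank 87, with replicate ranks of 84 and 90 and its summit 1211 bp upstream of the gene start. ain-1, a GW182 protein of the silencing complex, was at rank 536, and nhl-2, a TRIM-NHL cofactor, at rank 566. The Argonaute genes alg-5 and alg-1 were at ranks 792 and 1213, with summits 788 bp upstream and 1683 bp downstream of their starts. vig-1, a component of the silencing complex, was at rank 1257 and was the gene with a summit within 500 bp, but its replicate ranks were 4590 and 874. The genes for Drosha (drsh-1, best pooled rank 2202) and Dicer (dcr-1, 28705) had no thresholded summit there. Neither did the reported target cdh-3, which had no region in the pooled list and 1 in the replicate 1 list, at rank 16349.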

How the data were processed

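ChIP-seq peak lists of 2 biological replicates of 1 group were used. Replicate numbers and the group come from the labels. The authors deposited, for build ce11, lists for each replicate and for both pooled, and a thresholded list made from these 3, all relative to a control, per the deposited records. Neither the aligner, the peak caller nor the threshold is given in the sources used here. The signal deposited by the authors for each region has no stated scale and was used to rank regions within a list. The deposited −log10 q-value was not used, because 1158 of the 1416 thresholded peaks share its highest value. The authors' summit offset, a position and not a score, gave each summit. The lists hold no read counts, so depth is unknown. The ce10 lists were not used.

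Summits within 2000 bp of a gene start, the 5′ end of the Ensembl gene record, were assigned to that gene. Mature and genomic sequences came from RefSeq on the same assembly. Lists were matched by overlap of at least 1 bp, and the region with the longest overlap was taken. A replicate region could match more than 1 thresholded peak, which enters the rank ratios over all thresholded peaks. With 1 group there was no comparison between conditions, and no test was made. The genes named are the members, genes starting within 500 bp of a family peak, neighbouring coding genes, the host gene, the 5 microRNA genes of most similar rank, and up to 6 genes per list with a peak; drsh-1, dcr-1 and cdh-3, which are on the lists but have none, were named after their values were seen. Members and lists were chosen with earlier results of these data known. The window assignment was tested on simulated summits. Python 3.11.15, numpy 2.4.6, pandas 2.3.3 and matplotlib were used. Windows of 500, 1000 and 5000 bp, a stricter list, nearest starts only, overlap in place of summits, and each replicate alone were tried.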

Additional observations from a re-analysis of the deposited data

How the results depend on the processing

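All 6 members kept a thresholded summit with windows of 500, 1000 and 5000 bp, with overlap in place of summits, and when the 1416 regions of highest signal of either replicate alone stood in for the list. They also did in the 708 thresholded peaks of highest signal, where the 5 peaks fell to 3 because those at cel-mir-53 and after cel-mir-56 dropped out. When a peak counted only for the nearest gene start of any kind, 3 members remained, cel-mir-52, cel-mir-53 and cel-mir-56. Among other microRNA genes 14 of 255 remained under that rule. Without replicate 1 there were 5 peaks and without replicate 2 there were 6, as 2 more regions at cel-mir-52 came in and the peak after cel-mir-56 went out. The best pooled rank of cel-mir-53 was 848 with windows of 500 and 1000 bp, and that of cel-mir-56 was 1273 with 500 bp, since the stronger neighbouring peaks lay outside. Pooled regions fell from 11 to 6 with 500 and 1000 bp. Other microRNA genes with a peak numbered 25, 34 and 64 with 500, 1000 and 5000 bp, and 17 in the stricter list, against 50. They numbered 49 without replicate 1 and 44 without replicate 2. Leaving aside ranks in a single replicate, which the report gives, 33 of 43 alternative values stayed within 1.5 times the count reported or, for ranks, within the spread of the replicates, and 10 did not. Part of this tally was fixed in advance. Each member's nearest thresholded summit lay within 382 bp, so no window of 500 bp or more could lose a member. The family was also chosen by these peaks, so the tally is not support for them. Ranking by −log10 q-value was not run because of its ties. No paired analysis was possible because there is 1 group. Depth is unknown, so how it limits the weaker peaks cannot be stated.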
